A study of Homo sapiens with 10 samples.

Results

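The 39 genes described here were chosen as glucose transporters, glycolytic and pyruvate enzymes, HIF subunits, prolyl hydroxylases and well-known HIF targets. They were matched to probe sets annotated with exactly 1 gene symbol, and each gene is represented by the brightest of its probe sets across the 10 arrays. Of the 39 genes, 36 were measured, out of 19775 genes in all, and the other 3 are not analysed here. Glycolysis turns glucose into pyruvate and, where lactate dehydrogenase follows, into lactate, and most of its enzymes exist as several isoforms encoded by separate genes. Hypoxia-inducible factors (HIFs) switch on many of these genes when oxygen is low. A HIF pairs an oxygen-sensitive alpha subunit, HIF-1 alpha or HIF-2 alpha, with a constant partner, and prolyl hydroxylases mark the alpha subunits for destruction when oxygen is present.

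The samples were HuCCT1 cells, an established line of human bile duct cancer, which carried either a construct labelled YAPS94A (5 arrays) or an empty vector (5 arrays). All cells were grown in RPMI medium with fetal bovine serum, glutamine, sodium pyruvate and non-essential amino acids, and no label names a change in oxygen or glucose. YAP1 is the co-activator held in check by the Hippo kinases. The sample labels and title name its S94A form, known for weak binding to TEAD factors, whereas the design text names S127A, known as an active form, and the values do not settle which one the cells carried. The labels do not say whether the cells were a clone or a pool, nor do they tie arrays to independent cultures, so the spread behind every p-value here is that between arrays and may be technical. In RNA from a whole culture, a change in every cell and a change in a share of the cells cannot be told apart.

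The values are log2 signals, in which a difference of 1 is a doubling. YAP1 itself read 12.87, 12.53, 12.90, 12.92 and 13.01 on YAPS94A arrays 1 to 5, against 12.12, 12.05, 12.47, 12.48 and 12.50 on empty vector arrays 1 to 5. All 5 construct arrays exceeded all 5 empty vector arrays, with a difference of 0.52 ± 0.11 (SE, limma adjusted p = 0.00277). The other YAP1 probe sets, also bright, rose by 0.56 ± 0.10 and 0.60 ± 0.065 without overlap (SE, limma adjusted p = 0.00121 and 2.12e-05 over all probe sets). Neighbouring genes had a median difference of 0.31, and YAP1 on its brightest probe set did not pass with that median removed (limma adjusted p = 0.144). Array medians over all probe sets lay between 6.25 and 6.27 with YAPS94A and between 6.26 and 6.28 with empty vector. The 3' minus 5' signal of the ACTB and GAPDH control probe sets, a measure of RNA and amplification quality, ran from 0.445 to 0.822 with YAPS94A and from 0.476 to 0.851 with empty vector, so the vectors overlapped in it. Markers of bile duct epithelium were bright, with all 7 measured (among them the keratin genes KRT7 and KRT19) above the median level of genes and list means per array of 13.47 to 13.56 with YAPS94A and 13.34 to 13.41 with empty vector. Of the marker lists for other cells, none of 8 endothelial and none of 6 leukocyte markers lay above that median, and 1 of 8 hepatocyte markers (SERPINA1) and 2 of 8 fibroblast markers (COL1A1 and LUM) did. Some markers also differed, with 5 of the 7 bile duct markers higher, LUM 6.34-fold higher and LYZ, a leukocyte marker, 2.79-fold lower (limma adjusted p = 5.6e-10 and 1.04e-06), and their part in the results was not tested.

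The genes did not shift one way. Of the 36 measured genes, 8 were higher with YAPS94A, 8 were lower and 20 did not pass the test, a limma fit over all 19775 genes with a threshold of 0.05 on the adjusted p. The 16 genes that passed are 44.4% of the 36, whereas 36.3% of all genes passed, 18.6% higher and 17.6% lower. Among genes above the median level, where 32 of the 36 lie, 52.4% passed, 26.5% higher and 25.9% lower, so the share among glycolysis and hypoxia genes was near that background. Their median difference was -0.022, against -0.004 over all genes. Only 2 of the 16 reached 2-fold, NDRG1 and SLC2A3, and CA12 fell just short of it, while 10 stayed under a 1.5-fold change. The 2 vectors were fully apart for 16 of the 36 genes, against 29.1% of all genes, and 15 of these 16 also passed the test, the other being PFKFB2. Differences of at least 0.5 with no overlap were seen for 8 of the 36 genes, against 10.4% of all genes. For neither of these counts was the share among genes above the median level computed, so no excess can be read from them.

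**Figure D1:**
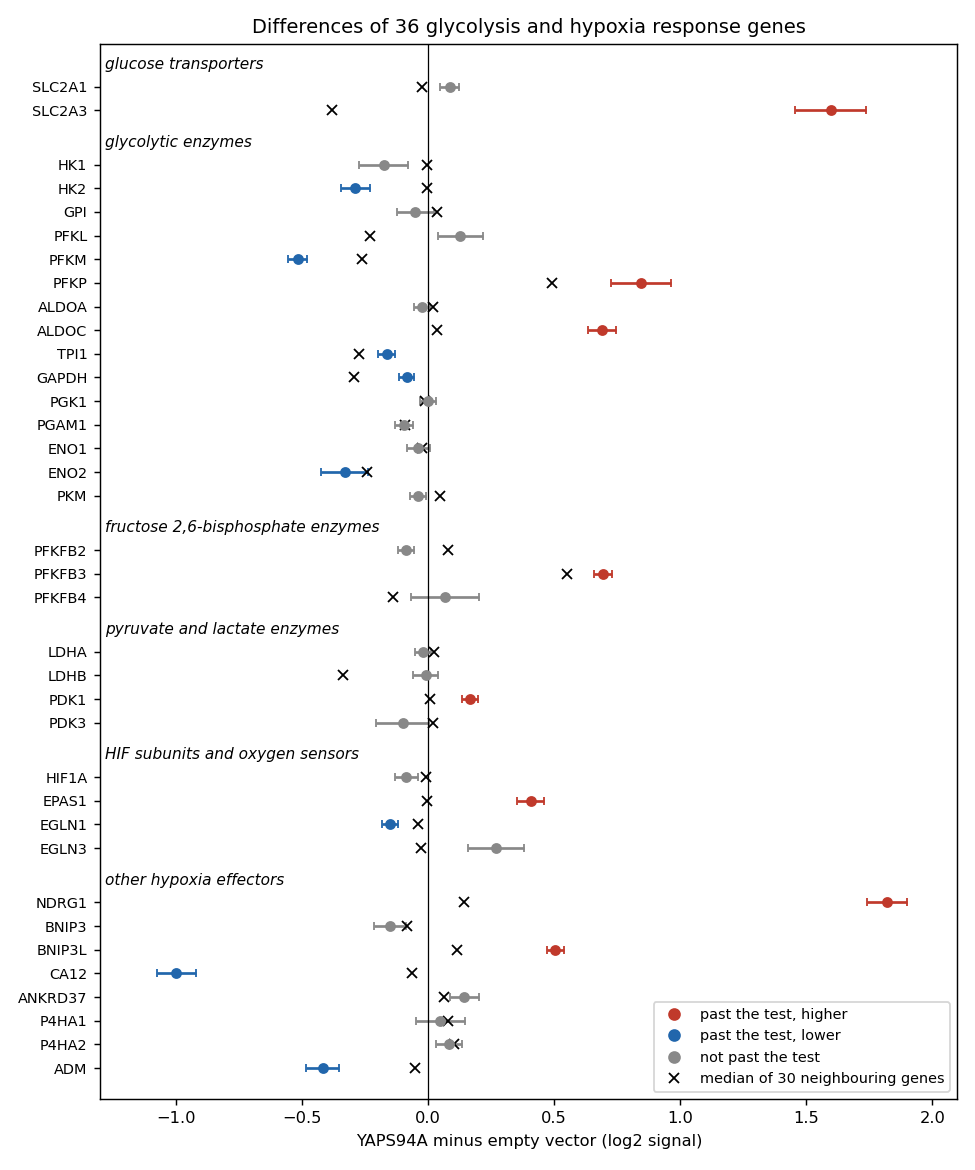
Difference in log2 signal, YAPS94A minus empty vector, for each of the 36 measured genes, grouped by role (points with SE bars from limma, 5 arrays per vector), and the median difference of each gene's 30 neighbouring genes (crosses). NDRG1 and SLC2A3 lie farthest to the right at 1.82 and 1.60, CA12 farthest to the left at -1.00, and most glycolytic enzymes lie close to 0.

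The glucose transporter genes differed from each other. SLC2A3 encodes the high-affinity glucose transporter GLUT3. SLC2A3 read 9.45, 9.15, 9.78, 9.94 and 9.24 on YAPS94A arrays 1 to 5, against 7.80, 7.79, 7.85, 8.12 and 8.01 on empty vector arrays 1 to 5. The groups were far apart although the construct arrays spread widely, and the rise was 1.60 ± 0.14 (SE, limma adjusted p = 2.64e-06), or 3.03-fold. Its other probe sets rose by 1.29 ± 0.21 and 0.90 ± 0.13 (SE), on dimmer signals, and SLC2A14, a close copy of SLC2A3 beside it, may share these probes. SLC2A1, the gene of the widespread transporter GLUT1 and a standard HIF target, did not pass the test. SLC2A1 read 11.90, 11.90, 11.88, 11.89 and 11.78 on YAPS94A arrays 1 to 5, against 11.77, 11.84, 11.74, 11.80 and 11.76 on empty vector arrays 1 to 5. Those groups overlapped, because YAPS94A array 5 lay among the empty vector arrays, and the difference of 0.087 ± 0.037 (SE, limma adjusted p = 0.0944) had an unadjusted 95% interval of 0.005 to 0.17. Without YAPS94A array 5 it was 0.11 (limma adjusted p = 0.036). The second SLC2A1 probe set gave 0.089 ± 0.051.

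Of 15 glycolytic enzyme genes, 2 were higher, 5 were lower and 8 did not pass, so 46.7% passed, between the 36.3% of all genes and the 52.4% of genes above the median level. At the entry of glycolysis, the hexokinase 2 gene was lower. HK2, the inducible hexokinase that traps glucose as glucose 6-phosphate, read 11.54, 11.50, 11.64, 11.63 and 11.63 on YAPS94A arrays 1 to 5, against 11.74, 11.75, 11.94, 11.97 and 11.97 on empty vector arrays 1 to 5. Every construct array lay below every empty vector array, and HK2 fell by 0.29 ± 0.058 (SE, limma adjusted p = 0.00195). A second bright probe set of HK2 fell by 0.30 ± 0.091 and a dim one differed by -0.043 ± 0.10. HK1, the constitutive hexokinase, differed by -0.18 ± 0.096 (SE, limma adjusted p = 0.191), with arrays of the vectors overlapping. HK1 passed with the array number as a block (limma adjusted p = 0.0303) and with the covariate for RNA quality (-0.12, limma adjusted p = 0.0156). GPI, which converts glucose 6-phosphate to fructose 6-phosphate, differed by -0.051 ± 0.074 (SE, limma adjusted p = 0.663).

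The isoform genes of phosphofructokinase, the committed step of glycolysis, changed in opposite directions. PFKP, the platelet-type subunit gene, read 12.06, 12.31, 11.94, 11.92 and 11.90 on YAPS94A arrays 1 to 5, against 11.47, 11.27, 11.34, 10.94 and 10.89 on empty vector arrays 1 to 5. PFKP rose by 0.84 ± 0.12 (SE, limma adjusted p = 0.00013), 1.80-fold, with no overlap, and was at 0.35 (limma adjusted p = 0.0317) with its neighbours' median removed. PFKM, the muscle-type subunit gene, read 10.93, 11.05, 11.00, 10.94 and 10.94 on YAPS94A arrays 1 to 5, against 11.56, 11.47, 11.48, 11.47 and 11.48 on empty vector arrays 1 to 5. PFKM fell by 0.52 ± 0.037 (SE, limma adjusted p = 4.21e-07), with no overlap. PFKL, the liver-type subunit gene, differed by 0.13 ± 0.089 (SE, limma adjusted p = 0.309). PFKP also had a dim probe set, at 4.26 with YAPS94A and 4.43 with empty vector, which was lower by 0.17 ± 0.048.

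The bifunctional enzymes that make and break fructose 2,6-bisphosphate, the strongest activator of phosphofructokinase, differed among themselves. PFKFB3, whose product acts mainly as a kinase and drives glycolysis, read 12.30, 12.28, 12.28, 12.23 and 12.19 on YAPS94A arrays 1 to 5, against 11.61, 11.56, 11.57, 11.54 and 11.51 on empty vector arrays 1 to 5. Its arrays were tight in both groups, and the rise was 0.69 ± 0.036 (SE, limma adjusted p = 2.49e-08), 1.62-fold, among neighbours with a median difference of 0.55, and 0.14 (limma adjusted p = 0.00627) with that median removed. PFKFB2 was lower on every construct array but differed by only -0.087 ± 0.033, which did not pass (limma adjusted p = 0.0597). PFKFB4, a HIF target, differed by 0.067 ± 0.14 (SE, limma adjusted p = 0.761) with overlapping arrays.

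ALDOC, the brain-type aldolase, was the other gene of a glycolytic enzyme that rose. ALDOC read 10.75, 10.81, 10.66, 10.77 and 10.60 on YAPS94A arrays 1 to 5, against 10.18, 10.02, 10.02, 9.98 and 9.94 on empty vector arrays 1 to 5. All construct values exceeded all empty vector values, for a rise of 0.69 ± 0.055 (SE, limma adjusted p = 1.13e-06), 1.61-fold, on its only probe set. ALDOA, the aldolase of most tissues, differed by -0.023 ± 0.033 (SE, limma adjusted p = 0.648). TPI1, which interconverts the triose phosphates, fell on all 3 of its probe sets, by 0.16 ± 0.033 (SE, limma adjusted p = 0.00209) on the one that stands for the gene and by 0.19 ± 0.033 and 0.28 ± 0.053 on the others. With its neighbours' median removed TPI1 was at 0.11 (limma adjusted p = 0.0205).

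In lower glycolysis GAPDH and ENO2 were lower, while PGK1, PGAM1, ENO1 and PKM did not pass on their brightest probe sets. GAPDH, often used as a reference gene, read 14.10, 14.14, 14.13, 14.12 and 14.12 on YAPS94A arrays 1 to 5, against 14.21, 14.20, 14.18, 14.22 and 14.22 on empty vector arrays 1 to 5. The groups did not overlap, yet the difference was only -0.084 ± 0.029 (SE, limma adjusted p = 0.0434), a 1.06-fold change on a signal near the highest on the arrays (14.43), and over all probe sets only 1 of its 3 probe sets passed. GAPDH passed in none of 10 fits that left out 1 array, and with its neighbours' median removed it was at 0.21 (limma adjusted p = 0.000127). The array maker's control probe set for the 3' end of GAPDH read 14.06 to 14.10 with YAPS94A and 14.13 to 14.16 with empty vector. The one for its middle read 14.03 to 14.06 with YAPS94A and 14.11 to 14.16 with empty vector, also without overlap. The one for its 5' end overlapped, at 13.87 to 13.95 with YAPS94A and 13.92 to 14.03 with empty vector. PGK1, a classical HIF target that makes ATP, read 13.37, 13.33, 13.29, 13.30 and 13.28 on YAPS94A arrays 1 to 5, against 13.34, 13.30, 13.34, 13.30 and 13.30 on empty vector arrays 1 to 5. These groups overlapped fully, with a difference of -0.001 ± 0.032 and a 95% interval of -0.072 to 0.070. A dim PGK1 probe set, at 7.69 with YAPS94A and 7.28 with empty vector, rose by 0.41 ± 0.097, while 4 other bright ones did not pass. PGAM1, the phosphoglycerate mutase, differed by -0.094 ± 0.037 (SE, limma adjusted p = 0.071), and ENO1, the main enolase, by -0.038 ± 0.044 (SE, limma adjusted p = 0.576). ENO2, the neuron-type enolase, fell by 0.33 ± 0.095 (SE, limma adjusted p = 0.0161), with overlapping arrays. PKM, pyruvate kinase, differed by -0.039 ± 0.031 (SE, limma adjusted p = 0.394) on its bright probe set, but a dimmer one fell by 0.42 ± 0.057 and read 9.26 ± 0.050 with YAPS94A and 9.68 ± 0.12 with empty vector (SD, n = 5).

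Of 4 genes that act on pyruvate and lactate, 1 was higher and 3 did not pass. The background was 36.3% of all genes and 52.4% of genes above the median level. With only 4 genes, the count does not set this group apart from it. LDHA, which makes lactate from pyruvate and is a HIF target, read 13.90, 13.87, 13.82, 13.86 and 13.84 on YAPS94A arrays 1 to 5, against 13.86, 13.92, 13.87, 13.87 and 13.87 on empty vector arrays 1 to 5. The arrays of the vectors were interleaved, and the difference was -0.020 ± 0.032 (SE, limma adjusted p = 0.689) with a 95% interval of -0.089 to 0.049. LDHB read 5.28 with YAPS94A and 5.29 with empty vector, below the lower quartile of gene levels (5.34), so its difference of -0.009 ± 0.048 says little. PDK1, a kinase that shuts off pyruvate dehydrogenase and is induced by HIF-1, rose by 0.17 ± 0.033 (SE, limma adjusted p = 0.00159) without overlap, and its dimmer probe sets differed by 0.069 ± 0.067 and 0.058 ± 0.058. In the mean of its probe sets PDK1 was at 0.098 (limma adjusted p = 0.0705) and did not pass. PDK3, of the same kinase family, differed by -0.10 ± 0.11 (SE, limma adjusted p = 0.531), although 1 of its 5 probe sets fell by 0.26 ± 0.062.

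**Figure D2:**
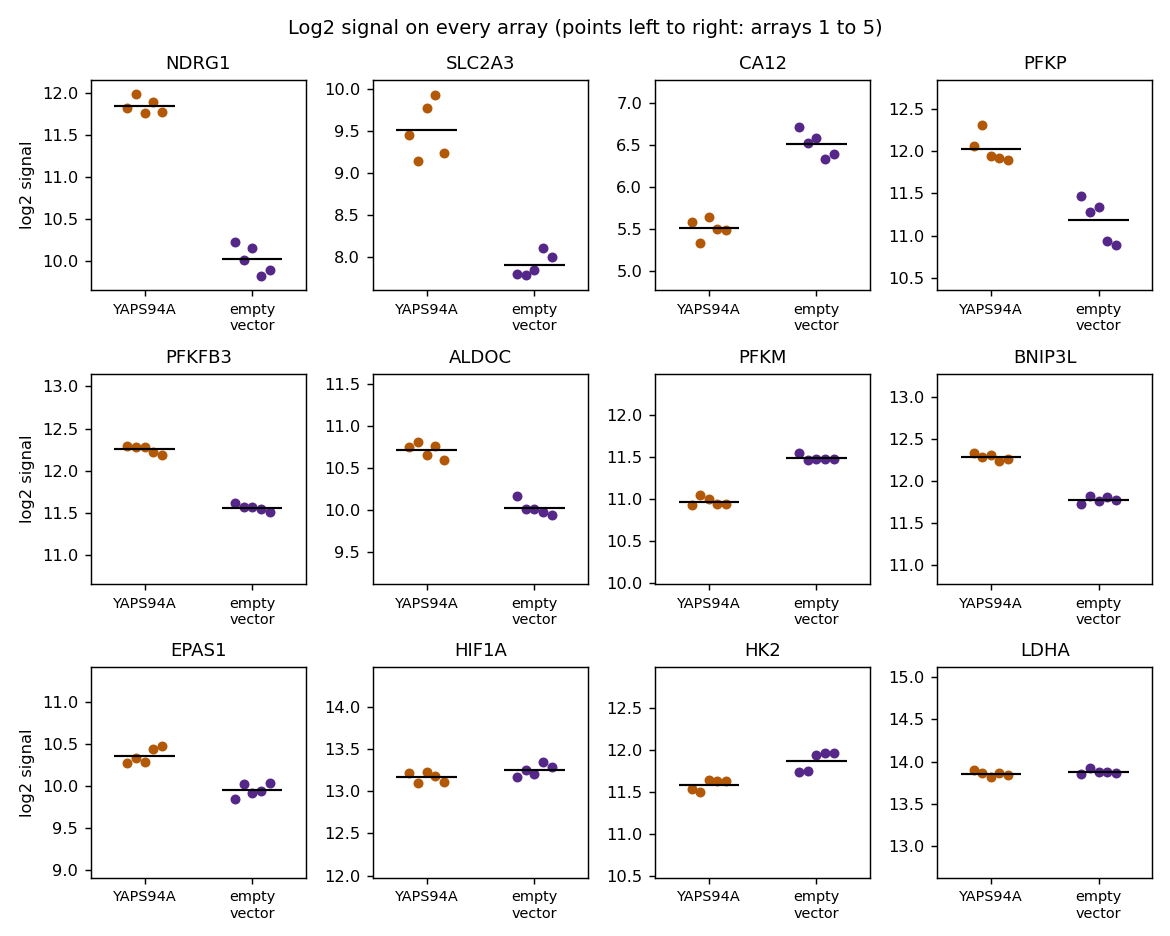
Log2 signal on each of the 5 YAPS94A and 5 empty vector arrays for 12 of the genes, with the group mean as a line and every panel spanning the same height in log2 units. NDRG1, SLC2A3, PFKP, PFKFB3, ALDOC, BNIP3L and EPAS1 lie higher with YAPS94A, CA12, PFKM and HK2 lie lower, and the arrays of HIF1A and LDHA overlap.

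Of 4 genes of HIF subunits and oxygen sensors, 1 was higher, 1 was lower and 2 did not pass. This is near the 52.4% of genes above the median level that passed, against 36.3% of all genes. HIF1A, which encodes HIF-1 alpha, read 13.21, 13.10, 13.23, 13.19 and 13.11 on YAPS94A arrays 1 to 5, against 13.17, 13.25, 13.20, 13.35 and 13.30 on empty vector arrays 1 to 5. The groups overlapped and the difference was -0.086 ± 0.046 (SE, limma adjusted p = 0.177), with a 95% interval of -0.19 to 0.014. EPAS1, which encodes HIF-2 alpha, read 10.27, 10.33, 10.29, 10.44 and 10.47 on YAPS94A arrays 1 to 5, against 9.84, 10.02, 9.92, 9.94 and 10.04 on empty vector arrays 1 to 5. EPAS1 was higher on every construct array, by 0.41 ± 0.054 (SE, limma adjusted p = 7.76e-05), 1.33-fold. Its other probe sets were dim and differed by 0.041 ± 0.060 and -0.062 ± 0.042, so the mean over its probe sets was 0.13 (limma adjusted p = 0.00424). Of the prolyl hydroxylases, EGLN1 (PHD2), the main oxygen sensor, fell by 0.15 ± 0.031 (SE, limma adjusted p = 0.00214), and 2 other EGLN1 probe sets fell by 0.34 ± 0.070 and 0.24 ± 0.076, while a dim one differed by 0.074 ± 0.057. EGLN3 (PHD3), itself HIF-induced, differed by 0.27 ± 0.11 (SE, limma adjusted p = 0.0812), and its second probe set, almost as bright, rose by 0.27 ± 0.074 (limma adjusted p = 0.0146 over all probe sets). EGLN3 passed with the array number as a block (limma adjusted p = 0.0295).

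Of 8 hypoxia effector genes outside glycolysis, 2 were higher, 2 were lower and 4 did not pass. The background was 36.3% of all genes and 52.4% of genes above the median level. BNIP3 and CA12 lie below that median, so the second share does not cover all 8 genes. With only 8 genes, the count does not set this group apart from either share. NDRG1 differed most of the 36 genes, except with neighbour medians removed, where SLC2A3 was at 1.98 and NDRG1 at 1.68. NDRG1, a stress-responsive gene induced by hypoxia and differentiation, read 11.81, 11.98, 11.75, 11.88 and 11.77 on YAPS94A arrays 1 to 5, against 10.22, 10.01, 10.15, 9.82 and 9.89 on empty vector arrays 1 to 5. The groups were far apart, and the rise was 1.82 ± 0.078 (SE, limma adjusted p = 5.31e-09), 3.53-fold. BNIP3L, which encodes the mitophagy receptor NIX, read 12.33, 12.28, 12.30, 12.24 and 12.25 on YAPS94A arrays 1 to 5, against 11.72, 11.82, 11.75, 11.81 and 11.77 on empty vector arrays 1 to 5. BNIP3L rose by 0.51 ± 0.035 (SE, limma adjusted p = 3.09e-07) and on its second probe set by 0.63 ± 0.036. BNIP3, the related receptor gene, read 5.45 with YAPS94A and 5.61 with empty vector, near the lower quartile, and differed by -0.15 ± 0.063 (SE, limma adjusted p = 0.0864). CA12, a carbonic anhydrase of the cell surface, read 5.58, 5.34, 5.65, 5.51 and 5.50 on YAPS94A arrays 1 to 5, against 6.72, 6.53, 6.58, 6.34 and 6.39 on empty vector arrays 1 to 5. CA12 fell by 1.00 ± 0.077 (SE, limma adjusted p = 8.4e-07), just under 2-fold, with no overlap.

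CA12 had 7 probe sets, of which 5 were lower, by 0.33 ± 0.096 to 1.35 ± 0.076, and 2 differed by -0.005 ± 0.052 and 0.033 ± 0.048. All 7 were dim with both vectors, at 6.51 or less with empty vector, below the median level of genes (7.63). With YAPS94A the chosen one lay near the lower quartile of gene levels (5.34), which may limit the size of the fall. The brightest CA12 probe set without an _x_at or _s_at suffix, suffixes that mark possible cross-hybridisation, was one of those near 0, at -0.005 (limma adjusted p = 0.959). ADM, the gene of the vasodilator adrenomedullin and a common HIF target, fell by 0.42 ± 0.067 (SE, limma adjusted p = 0.000348), with every construct array below every empty vector array. The collagen prolyl hydroxylase genes P4HA1 and P4HA2 differed by 0.050 ± 0.098 (SE, limma adjusted p = 0.755) and 0.084 ± 0.051 (SE, limma adjusted p = 0.249), and a second bright P4HA2 probe set rose by 0.26 ± 0.067. ANKRD37, a small ankyrin protein gene induced by HIF-1, differed by 0.14 ± 0.056 (SE, limma adjusted p = 0.0665).

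**Figure D3:**
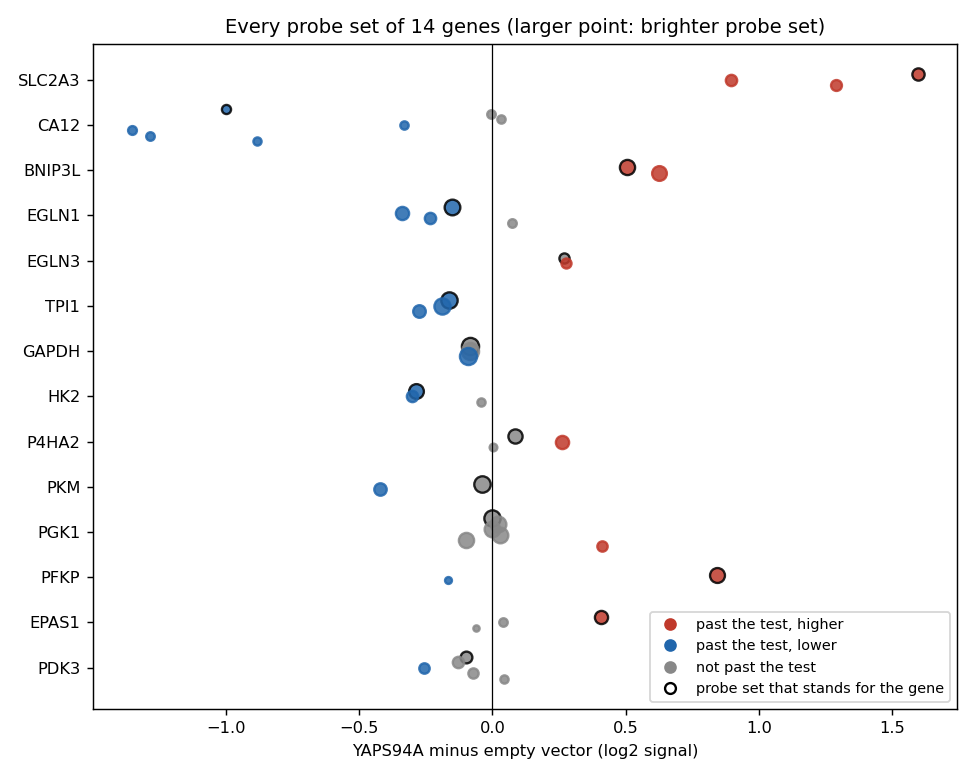
Difference in log2 signal, YAPS94A minus empty vector, for every probe set of 14 genes, with larger points for brighter probe sets, color for the limma call over all 54613 probe sets and a dark rim on the probe set that stands for the gene. All 3 SLC2A3 probe sets lie to the right, 5 of the 7 CA12 probe sets lie to the left, and PFKP is the only gene shown with calls in both directions.

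The 36 genes were covered by 87 probe sets, 25 genes by more than 1. Over all 54613 probe sets 28.6% passed. PFKP was the only 1 of the 36 genes with probe sets called in both directions. PFKL, ALDOA, GAPDH, LDHB and CA12 are represented by _x_at probe sets, and GAPDH has many processed pseudogenes, so their signals may include related transcripts. Other genes are represented by _s_at probe sets, to which the same limit applies. Among these, NDRG1, PFKFB3 and PFKM each have only 1 probe set.

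Pairs of related genes were compared within arrays, which asks whether 2 genes changed unequally. Of 12 pairs, 8 separated the vectors completely, each with p = 0.00794 in a two-sided exact permutation test, the lowest value that these group sizes can give, and 0.0119 after Benjamini-Hochberg adjustment over the 12. The share among other pairs of genes was not computed, so the count does not set these pairs apart from others. Of all single genes 29.1% were fully apart, and 52.4% of those above the median level passed the limma test. SLC2A3 gained 1.51 ± 0.16 (SE) on SLC2A1, PFKP gained 0.72 ± 0.083 on PFKL, and ALDOC gained 0.71 ± 0.054 on ALDOA. BNIP3L gained 0.66 ± 0.086 on BNIP3, PFKFB3 gained 0.63 ± 0.14 on PFKFB4, EPAS1 gained 0.49 ± 0.067 on HIF1A and EGLN3 gained 0.42 ± 0.12 on EGLN1. ENO2 lost 0.29 ± 0.075 relative to ENO1. BNIP3 and LDHB read near background, where a change of their own could hardly show. Their pairs, BNIP3L with BNIP3 and LDHB with LDHA, therefore cannot decide whether the 2 genes changed unequally. With each gene's neighbour median removed, an alternative added after seeing the data, 5 of these 8 pairs passed and 3 did not. PFKP minus PFKL was then at -0.0055, PFKFB3 minus PFKFB4 at -0.062 and ENO2 minus ENO1 at -0.078, with adjusted exact permutation p-values of 0.952, 0.829 and 0.464. In the mean of probe sets PFKP gained only 0.17 ± 0.035 on PFKL and EPAS1 0.22 ± 0.045 on HIF1A, both still past the test. The pairs HK2 and HK1 (-0.11 ± 0.17), LDHB and LDHA (0.011 ± 0.046), P4HA2 and P4HA1 (0.034 ± 0.11) and PDK3 and PDK1 (-0.27 ± 0.12) did not pass, with exact permutation p-values of 0.468, 0.81, 0.817 and 0.0556 and adjusted values of 0.562, 0.817, 0.817 and 0.0741. Flipping signs within the same-numbered pairs of arrays gives at best an exact p of 0.0625, so that scheme cannot pass 0.05.

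**Figure D4:**
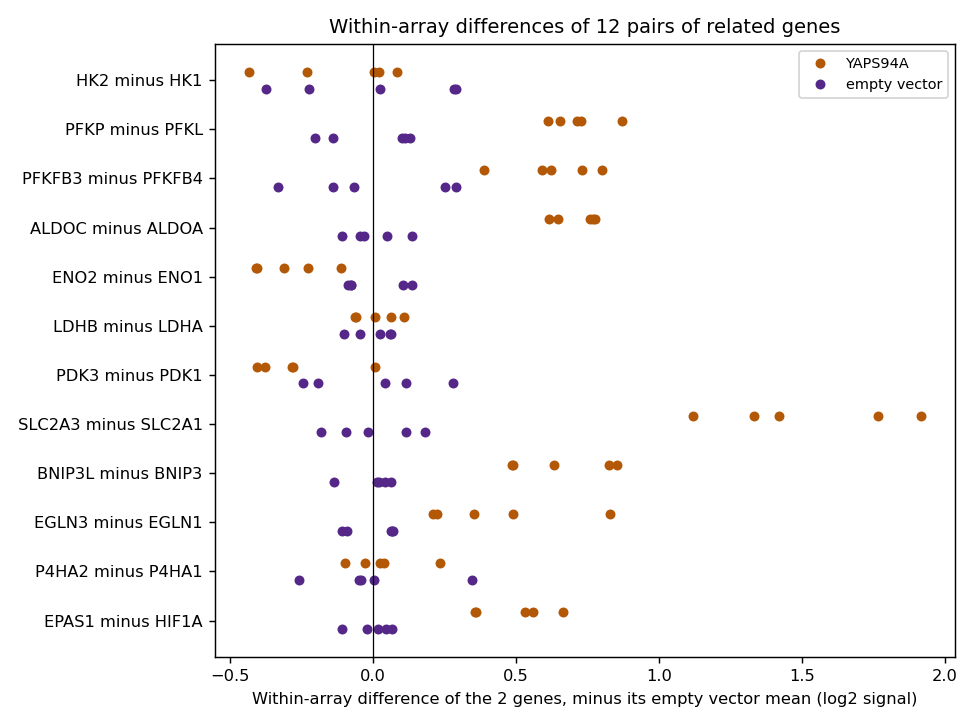
Within-array difference between the log2 signals of 2 related genes, set to 0 at the empty vector mean, for 12 pairs, with 1 point per array (5 YAPS94A and 5 empty vector arrays per pair). The vectors do not overlap for 8 pairs, with SLC2A3 minus SLC2A1 shifted most, by 1.51, before any removal of neighbour medians.

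Several of the genes lay among neighbours that had shifted together. The median difference of the 30 nearest bright genes in chromosome order was beyond 0.2 in either direction for 9 of the 36 genes, against 10.5% of all genes. Of these 9 genes 6 lie on chromosome 12, and genes on the same chromosome can share neighbours. The 9 are therefore not independent, and no excess can be read from the count. PFKP and PFKFB3, both on chromosome 10, lay among neighbours that were higher by a median of 0.49 and 0.55, and the values given above with that median removed keep the SE of the original fit. All 6 of the genes on chromosome 12 lay among neighbours that were lower, with medians of -0.24 to -0.38. PFKM was at -0.26 (limma adjusted p = 0.000153) relative to its neighbours, and ENO2, at -0.091 (limma adjusted p = 0.473), no longer passed. TPI1 and GAPDH turned round, as given above. SLC2A3 rose against falling neighbours and reached 1.98 (limma adjusted p = 4.44e-07) relative to them. NDRG1, BNIP3L, ALDOC, CA12, EPAS1, HK2 and ADM had neighbour medians between -0.062 and 0.14.

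**Figure D5:**
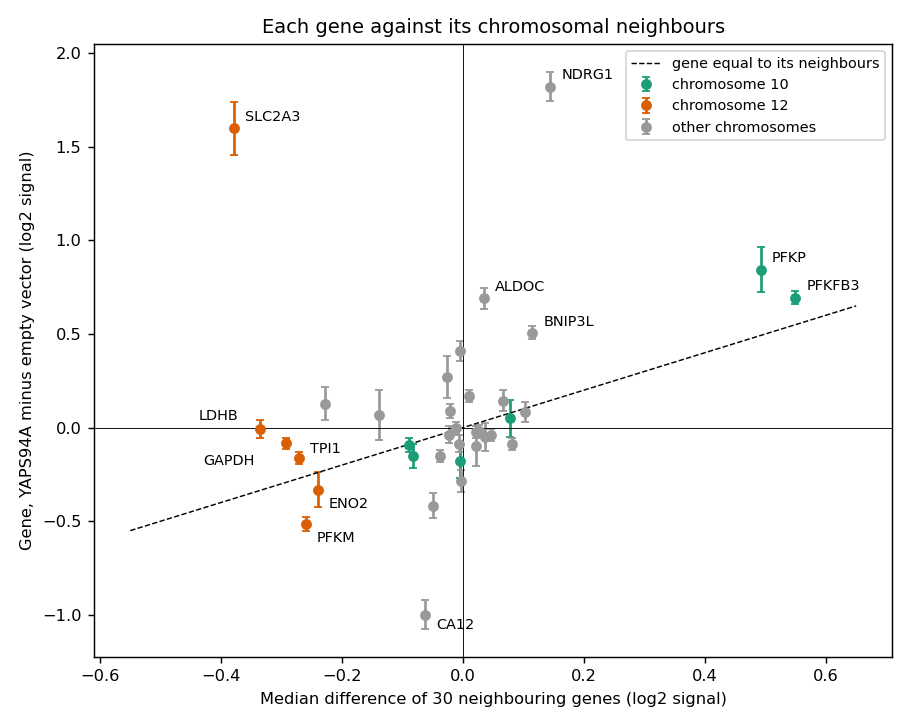
Difference of each of the 36 genes (y axis, log2 signal, YAPS94A minus empty vector, with SE) against the median difference of its 30 neighbouring bright genes (x axis, log2 signal), with chromosomes 10 and 12 in color. PFKP and PFKFB3 lie to the right, PFKFB3 close to the dashed line of equality and PFKP above it, the 6 genes of chromosome 12 lie to the left, and SLC2A3 stands far above its neighbours.

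Promoter sequences are shown for genes that changed and for a pair of HIF targets that did not, because the core of the hypoxia response element, to which HIFs bind, is short and can be read directly. The windows run from 250 bases before to 50 bases after the start site, are given 5′ to 3′ along the gene and come from RefSeq (GRCh38.p14). CA12, PFKP, PFKFB3 and ALDOC were taken as the genes with the largest changes that had a window and could be shown, and LDHA and PGK1 were added after their values were seen. Capitals mark ACGTG or GCGTG on either strand, where CACGTG holds ACGTG on both strands.
CA12, chr15:63381797-63382096, strand -: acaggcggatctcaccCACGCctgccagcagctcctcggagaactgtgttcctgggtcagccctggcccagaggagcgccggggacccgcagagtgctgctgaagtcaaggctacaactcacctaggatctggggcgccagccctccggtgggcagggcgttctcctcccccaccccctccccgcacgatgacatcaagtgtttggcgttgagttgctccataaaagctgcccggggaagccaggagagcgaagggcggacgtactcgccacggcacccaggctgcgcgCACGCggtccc
PFKP, chr10:3067720-3068019, strand +: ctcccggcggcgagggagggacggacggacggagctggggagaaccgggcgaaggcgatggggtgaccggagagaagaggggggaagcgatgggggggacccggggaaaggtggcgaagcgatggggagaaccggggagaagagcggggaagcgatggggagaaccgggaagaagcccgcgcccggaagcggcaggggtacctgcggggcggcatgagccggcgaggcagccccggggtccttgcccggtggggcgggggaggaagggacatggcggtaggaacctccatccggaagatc
PFKFB3, chr10:6144671-6144970, strand +: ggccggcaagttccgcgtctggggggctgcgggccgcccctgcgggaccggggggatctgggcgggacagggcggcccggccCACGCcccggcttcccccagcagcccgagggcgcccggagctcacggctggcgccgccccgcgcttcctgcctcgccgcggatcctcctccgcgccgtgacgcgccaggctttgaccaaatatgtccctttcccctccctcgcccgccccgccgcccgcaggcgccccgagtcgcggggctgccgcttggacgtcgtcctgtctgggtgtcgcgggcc
ALDOC, chr17:28576846-28577145, strand -: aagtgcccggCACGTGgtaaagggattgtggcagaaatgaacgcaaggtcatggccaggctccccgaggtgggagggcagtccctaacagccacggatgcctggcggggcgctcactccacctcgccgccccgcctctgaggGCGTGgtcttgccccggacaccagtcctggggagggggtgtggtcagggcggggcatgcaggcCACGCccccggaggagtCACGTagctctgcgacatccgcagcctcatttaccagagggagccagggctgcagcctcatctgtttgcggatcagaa
LDHA, chr11:18394313-18394612, strand +: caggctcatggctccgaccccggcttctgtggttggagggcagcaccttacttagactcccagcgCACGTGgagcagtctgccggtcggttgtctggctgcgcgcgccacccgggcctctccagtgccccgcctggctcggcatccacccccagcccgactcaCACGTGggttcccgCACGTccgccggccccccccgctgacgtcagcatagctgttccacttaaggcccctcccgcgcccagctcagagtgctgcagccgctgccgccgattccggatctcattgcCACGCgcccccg
PGK1, chrX:78103998-78104297, strand +: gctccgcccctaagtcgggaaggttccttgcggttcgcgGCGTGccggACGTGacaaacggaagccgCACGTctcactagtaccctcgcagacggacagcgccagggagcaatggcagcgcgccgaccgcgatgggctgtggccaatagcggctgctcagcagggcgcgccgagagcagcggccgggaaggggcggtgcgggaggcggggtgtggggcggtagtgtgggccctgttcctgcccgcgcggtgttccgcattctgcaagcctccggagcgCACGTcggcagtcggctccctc

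LDHA held ACGTG 5 times and PGK1 3 times, the LDHA count including 2 palindromes, and neither gene passed the test. ALDOC, which rose, held ACGTG 3 times, a count that also includes a palindrome read on both strands, and GCGTG 2 times. PFKFB3, which also rose, held GCGTG 1 time and no ACGTG, CA12, which fell, held GCGTG 2 times, and PFKP held neither. Of the 36 genes 32 had a window. NDRG1, SLC2A3 and BNIP3L, all higher, and PFKFB2 had none and are outside the counts below. Among the 32, 13 (40.6%) held ACGTG, against 24.1% of the 15384 windows of genes tested and 21.6% of all 27305 windows. By call, ACGTG was present in 1 of 5 windows of genes that were higher, 4 of 8 of those that were lower and 8 of 19 of those that did not pass. GCGTG was present in 3 of 5, 3 of 8 and 11 of 19 of these windows, and in 53.1% of the 32 against 44.3% of the windows of genes tested. A match describes letters in this window and not a binding site.

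Other genes of glucose metabolism and the hypoxia response were counted in the same fit. Of 38 other hypoxia-induced genes measured, 14 were higher, 13 were lower and 11 did not pass, so 71.1% passed, in both directions, against 36.3% of all genes and 52.4% of genes above the median level, where 31 of the 38 lie. The median was 0.068. PLIN2, a lipid droplet coat protein gene, rose by 3.09 ± 0.091 (SE, limma adjusted p = 2.2e-10), 8.53-fold, and SPAG4 by 0.85 ± 0.059 (SE, limma adjusted p = 3.53e-07). BHLHE41 and VLDLR, a repressor and a lipoprotein receptor gene, fell by 0.96 ± 0.068 and 1.17 ± 0.083 (SE, limma adjusted p = 3.99e-07 and 4.19e-07), among neighbours with medians of -0.37 and -0.31. PLIN2 rose although its neighbours had a median of -0.21.

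Of 14 HIF control genes, 1 was higher, 3 were lower and 10 did not pass, with a median of -0.022. The 28.6% that passed compares with 36.3% of all genes and 52.4% of those above the median level, where 10 of the 14 lie. ARNT2, a partner of HIF alpha subunits, fell by 1.85 ± 0.076 (SE, limma adjusted p = 3.45e-09), 3.61-fold, and read 6.58 ± 0.17 with YAPS94A and 8.43 ± 0.073 with empty vector (SD, n = 5). The related partner gene ARNT was brighter and did not pass. It read 11.27 with YAPS94A and 11.15 with empty vector, a difference of 0.13 ± 0.11 (SE, limma adjusted p = 0.42). HIF1AN, the asparagine hydroxylase FIH that restrains HIF, and the ubiquitin ligase gene SIAH2 fell by 0.23 ± 0.054 and 0.13 ± 0.042, while the third prolyl hydroxylase gene, EGLN2, rose by 0.16 ± 0.045 (SE, limma adjusted p = 0.0162).

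Among 29 other glycolysis and pyruvate genes 7 were higher, 5 were lower and 17 did not pass, with a median of 0.013. The 41.4% that passed lies between 36.3% of all genes and 52.4% of those above the median level, where 20 of the 29 lie. PDK4, the pyruvate dehydrogenase kinase linked to fasting and fat use, rose by 2.37 ± 0.12 (SE, limma adjusted p = 3e-08), 5.16-fold, and read 7.66 ± 0.15 with YAPS94A and 5.29 ± 0.29 with empty vector (SD, n = 5). PKLR, the liver and red cell pyruvate kinase, rose by 0.90 ± 0.085 (SE, limma adjusted p = 4.57e-06) and the transporter gene SLC2A6 by 0.51 ± 0.047 (SE, limma adjusted p = 4.04e-06). TIGAR, which lowers fructose 2,6-bisphosphate, fell by 0.70 ± 0.042 (SE, limma adjusted p = 8.93e-08) among neighbours with a median of -0.26.

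Pentose phosphate, gluconeogenesis and glycogen genes were counted as routes that branch from glycolysis. Of 7 pentose phosphate pathway genes, 3 were higher and 1 was lower, with a median of 0.085. The 57.1% that passed compares with 36.3% of all genes and 52.4% of those above the median level, where 6 of the 7 lie. H6PD rose by 1.11 ± 0.11 (SE, limma adjusted p = 6.18e-06), PGLS, the lactonase, by 0.78 ± 0.063 (SE, limma adjusted p = 1.34e-06) and PGD, the second dehydrogenase of the pathway, by 0.46 ± 0.081 (SE, limma adjusted p = 0.000791), while RPIA fell by 0.30 ± 0.081. Of 8 gluconeogenesis genes 37.5% passed, against 36.3% of all genes and 52.4% of those above the median level, where 4 of the 8 lie. None was lower, with a median of 0.13, and 3 were higher. They were FBP1, fructose 1,6-bisphosphatase, PCK2, the mitochondrial PEP carboxykinase, and SLC37A4, the glucose 6-phosphate translocase, which rose by 0.73 ± 0.052, 0.71 ± 0.083 and 0.38 ± 0.063 (SE, limma adjusted p = 3.8e-07, 2.77e-05 and 0.000497). Of 13 glycogen genes, 5 were higher and 2 were lower (PGM2 and GYS1). The 53.8% that passed compares with 36.3% of all genes and 52.4% of those above the median level, where 11 of the 13 lie. Among the higher ones were the phosphorylase gene PYGL at 0.56 ± 0.048 (SE, limma adjusted p = 1.98e-06), the phosphatase targeting genes PPP1R3B and PPP1R3D at 0.59 ± 0.046 and 0.30 ± 0.039, and UGP2, which makes UDP-glucose, at 0.33 ± 0.035. Of 13 tricarboxylic acid cycle genes, 1 was higher, 2 were lower and 10 did not pass. The 23.1% that passed compares with 36.3% of all genes and 52.4% of those above the median level, where all 13 lie. IDH3A, IDH3G and SUCLA2 were at -0.25 ± 0.046, 0.20 ± 0.071 and -0.12 ± 0.035.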

How the data were processed

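RNA of HuCCT1 cells with YAPS94A or empty vector was measured on 10 Affymetrix arrays, after amplification with a NuGEN Ovation kit and biotin labelling, per the labels' protocols. The authors deposited log2 signals for 54675 probe sets; the method of summarising and normalizing them was not stated in the labels or file headers. Medians were nearly equal, so the log2 values were used unchanged. An array carries no count of molecules, so the number of arrays limits the precision.

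Gene symbols came from GEO's annotation of the platform and were brought up to date with RefSeq (GRCh38.p14), which held 41043 of the 41097 probe sets with 1 symbol. A further 1801 had several symbols and 11777 had none. Tests ran on 54613 probe sets, without 62 control ones. The vectors were compared with limma 3.58.1 in R 4.3.3 (lmFit and eBayes, no covariate, two-sided, Benjamini-Hochberg over 19775 genes, or over 54613 probe sets where so stated). No filter on low values was applied. The fit was tested on simulated data. The genes, lists, pairs and tests were chosen with earlier results of these data known.

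All members were to be named, with every array's value for those past the test, not overlapping and different by at least 0.5, and for HIF1A, EPAS1, SLC2A1, HK2, LDHA, PGK1 and GAPDH. From each other list up to 4 genes past the test with the smallest p were named, and ARNT, PGM2 and GYS1 were named besides. Neighbours were the 30 nearest genes above the median level in RefSeq order, and removing their median leaves its own error out of the SE. Protein sequences are not shown, and 2 of 14 planned pairs are not analysed here. Arrays with the same number were treated as a possible pairing, because their deviations from the group means correlated at 0.102 to 0.59 in the 5 pairs, a check of the data and not a stated batch. No 2 arrays held identical values, and arrays correlated at 0.9957 to 0.9991 where they shared a vector and at 0.9867 to 0.9901 otherwise. There were 23 alternative fits, and the closing part gives their effect.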

Additional observations from a re-analysis of the deposited data

Results flagged for a closer look

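In 74 sets of 5 arrays (36 genes and YAP1, each in 2 vectors) 8 had 1 array far from the other 4, where chance flags about 1 in 20 sets. With YAPS94A, PDK3 read 9.18 on array 2, against 8.81 to 8.85 on the others. P4HA1 read 10.87 on array 2, against 11.13 to 11.22. SLC2A1 read 11.78 on array 5, against 11.88 to 11.90, and without that array its difference was 0.11 (limma adjusted p = 0.036), past the test. PKM read 13.38 on array 5, against 13.43 to 13.44. With empty vector, PFKM read 11.56 on array 1, against 11.47 to 11.48, and EGLN1 read 12.69 on array 1, against 12.75 to 12.76. LDHA read 13.92 on array 2, against 13.86 to 13.87, and TPI1 read 13.29 on array 3, against 13.37 to 13.40.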

How the results depend on the processing

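Of the 16 genes that passed, 11 kept their call and direction under all alternatives run, and GAPDH, TPI1, ENO2, PDK1 and CA12 did not. Among the 11, NDRG1, SLC2A3, PFKFB3 and PFKM have only _x_at or _s_at probe sets. The fit without such probe sets, in which CA12 lost its call, could not be run for them. Without _x_at and _s_at probe sets 5 genes were higher and 5 lower, from fewer genes tested, and with the neighbour median removed 14 were higher and 7 lower. The number of all genes past the test ranged from 2774 to 4551 higher and from 2735 to 4166 lower over all alternatives. With the array number as a replicate block 9 genes were higher and 8 lower, where HK1 and EGLN3 passed and GAPDH (limma adjusted p = 0.0766) did not, and it changed no other call among the 36 genes. YAP1 fell short only with the neighbour median removed (0.22, limma adjusted p = 0.144). Leaving out each array in turn gave 8 to 10 higher and 7 to 8 lower of the 36 genes, 3415 to 3816 higher and 3078 to 3611 lower of all genes, and 0.45 to 0.60 for YAP1. GAPDH passed in none of those 10 fits (limma adjusted p = 0.0505 to 0.0912). Some differences changed sign. With the neighbour median removed TPI1 was at 0.11, GAPDH at 0.21, LDHB at 0.33 (by construction, since its own signal is near background), PGK1 at 0.011, P4HA1 at -0.028 and P4HA2 at -0.019. With the most variable probe set PGK1 was at 0.41 (limma adjusted p = 0.00599), ALDOA at 0.0071, ENO1 at 0.035 and PDK3 at 0.043. PGK1 was at 0.0077 with median centring, 0.0599 in the mean of probe sets and 0.006 with the RNA quality covariate, and LDHB at 0.0036 with quantile normalization, 0.0076 with that covariate and 0.0006 without the arrays numbered 1 and 2. BNIP3 was at 0.071 without _x_at and _s_at probe sets. With 1 array left out, signs varied for PGK1 (-0.015 to 0.0069), LDHB (-0.037 to 0.0064), P4HA1 (-0.021 to 0.11), PFKFB4 (-0.017 to 0.16), LDHB minus LDHA (-0.014 to 0.030) and P4HA2 minus P4HA1 (-0.031 to 0.12), none of them past the test. In the mean of probe sets the pair ENO2 and ENO1 lost its call (-0.32, adjusted exact permutation p = 0.0952) and PDK3 and PDK1 gained one (-0.20, p = 0.0119). With neighbour medians removed, PFKP minus PFKL (-0.0055) and PFKFB3 minus PFKFB4 (-0.062) changed sign. The causes were not tested, except where removing neighbours or probe sets is itself the change. Signals near the highest value (GAPDH, LDHA) or near background (LDHB, BNIP3, CA12) limit what a difference can show.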

Other observations

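Several of these genes differed between arrays of the same vector by about as much as between vectors. HK1 read 10.78, 10.94, 10.63, 10.63 and 10.55 on YAPS94A arrays 1 to 5 and 11.12, 10.98, 10.92, 10.69 and 10.69 on empty vector arrays 1 to 5. ENO2 read 11.37, 11.55, 11.29, 11.17 and 11.12 with YAPS94A and 11.86, 11.75, 11.54, 11.47 and 11.53 with empty vector in the same order. PDK3 read 8.84, 9.18, 8.85, 8.84 and 8.81 with YAPS94A and 9.28, 9.15, 9.05, 8.80 and 8.75 with empty vector. The 3' minus 5' signal of the control probe sets read 0.679, 0.822, 0.543, 0.455 and 0.445 with YAPS94A and 0.851, 0.682, 0.676, 0.52 and 0.476 with empty vector in that order. With this measure as a covariate 10 of the 36 genes were higher and 11 were lower, and HK1, PFKL, PFKFB2, PGAM1 and ANKRD37 passed that did not pass without it. The part of this measure in the results was not tested further.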
